A study of Homo sapiens with 6 samples.

Results

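The keratin genes described here are 10 genes that were expressed in A549 cells, KRT7, KRT8, KRT10, KRT15, KRT18, KRT19, KRT80, KRT81, KRT85 and KRT86, out of 60624 genes in the table. They were chosen by name with their difference between the groups already known, so their values are described and not tested. A549 is an established human lung adenocarcinoma cell line, and its RNA was sequenced after transfection for 3 days with control siRNA (siCTR, 3 libraries) or with siRNA against CEP20, a centrosomal protein gene (siCEP20, 3 libraries). All 6 libraries come from this line, the labels give the genotypes as control and CEP20 knockdown, and 1 label field names a plasmid in place of siRNA. The labels name F-12K medium, whereas the methods name DMEM. The methods speak of independent experiments for the results in general and do not name the RNA-seq libraries, so p-values are read as the spread between these samples, which may be technical. Only 1 siCEP20 group was sequenced, and the labels do not name the siRNA used. Effects of the siRNA treatment on other transcripts therefore cannot be told apart from those of CEP20 loss.

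Keratins are the intermediate filament proteins of epithelial cells. An acidic type I keratin always assembles with a basic type II keratin, and the pair in use marks the kind of epithelium. KRT8 with KRT18 is the pair of simple, single-layered epithelia, often joined there by KRT7 and KRT19, while hair-type keratins such as KRT81, KRT85 and KRT86 form the hard filaments of the hair shaft and nail. The genes of each type lie side by side, the type II genes on chromosome 12 together with the type I gene KRT18, and the other type I genes on chromosome 17.

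Levels are given in TPM, a transcript abundance scaled to transcript length and to the same sum in each library, so levels of different genes can be compared. TPM keeps no read depth, and the depth of each library is unknown. The siCTR libraries had 14429 to 14600 genes at 1 TPM or more, and the siCEP20 libraries 14851 to 14987. The largest single share of TPM was 5.13%, for MTATP8P1 in siCEP20 replicate 1. The targeted gene CEP20 was at 31.6 ± 3.10 TPM in siCTR and 16.2 ± 1.01 TPM in siCEP20 (SD, n = 3 each), with separate groups. Fold changes were fitted with limma on log2(TPM + 1) for the 14778 genes whose mean reached 1 TPM, a scale that understates the change of low genes. A gene was called at a Benjamini-Hochberg adjusted p-value under 0.05 with a fold change over 1.5 or under 0.67. The middle value of the log2 fold changes (siCEP20 against siCTR) over these genes was 0.13. In bulk RNA, fewer cells of a type and less RNA per cell cannot be told apart.

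To show the DNA in front of members of both classes, the promoters of the hair-type gene KRT85 and of KRT10 are printed from the RefSeq promoter table (GRCh38.p14). Of the 10 members, 3 had an entry there (KRT8, KRT10 and KRT85), and the KRT8 entry is not shown because it lies at an alternative start. A second KRT85 entry, with its start inside the gene, is not shown either. Each window runs 5′ to 3′ on the gene's strand, the minus strand for both, from 250 bases before the start to 50 bases after it. Capitals mark matches of the letters TATAAA, of the letters AATAAA, of the AT-rich motif TTTAT or of the AT-rich motif TTAAT on either strand. The KRT85 window is chr12:52367432-52367731 and the KRT10 window is chr17:40822565-40822864.
KRT85: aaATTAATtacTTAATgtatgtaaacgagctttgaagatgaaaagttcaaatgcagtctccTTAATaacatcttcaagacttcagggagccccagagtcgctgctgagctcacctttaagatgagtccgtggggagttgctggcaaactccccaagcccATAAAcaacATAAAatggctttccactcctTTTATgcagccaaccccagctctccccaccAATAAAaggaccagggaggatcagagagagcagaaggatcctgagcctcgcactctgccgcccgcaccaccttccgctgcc
KRT10: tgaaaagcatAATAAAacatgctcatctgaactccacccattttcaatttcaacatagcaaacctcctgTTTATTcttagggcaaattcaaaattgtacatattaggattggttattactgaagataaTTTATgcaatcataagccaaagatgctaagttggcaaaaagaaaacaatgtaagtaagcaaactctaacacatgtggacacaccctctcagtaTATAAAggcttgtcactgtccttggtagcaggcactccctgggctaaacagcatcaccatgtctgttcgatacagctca

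The KRT10 window held TATAAA, the TATA box letters, beginning 29 bases before the start. The KRT85 window held no TATAAA, and it held AATAAA beginning 31 bases before the start. AATAAA was also matched 2 times in the KRT10 window, 1 on each strand, farther from the start than in KRT85. AATAAA therefore does not separate the 2 windows. TATAAA occurred in 11.5% and AATAAA in 17.4% of the 35097 promoters of the table. TTTAT, which overlaps both of these motifs when read on the other strand, was matched 4 times in each window and at least once in 34.9% of all promoters. TTAAT was matched 4 times in the KRT85 window and not in the KRT10 window, and it occurred in 24.4% of all promoters. Neither window held TGANTCA, the AP-1 letters (7.71% of all promoters). GGGCGG, the GC box, was matched once on the reverse strand of the KRT85 window, 26 bases after the start, and not in the KRT10 window (44.9% of all promoters). The second KRT85 entry held 1 match of TTTAT and none of the other motifs. A match of letters is not a binding site, and a missing match says only that these letters are not in the window.

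The 3 hair-type keratins were called lower in siCEP20 cells, and none of the simple-epithelial keratins KRT7, KRT8, KRT18 and KRT19 was called. KRT81, the most abundant keratin of the control cells, was at 47.2% of its control level, and KRT85 and KRT86 were lower too. KRT15, which is not a hair-type keratin, was also called lower, and KRT80 and KRT8 had the highest log2 fold changes of the members. Of the 10 members, 1 was called higher and 4 were called lower. Over all tested genes, 15.8% were called, 11.2% higher and 4.61% lower. Of these calls 70.9% were higher (1659 against 682), but 44.8% with the libraries scaled by the median of ratios and 47.6% after quantile normalization. In each member the groups did not overlap, with siCEP20 above siCTR in 5 members and below in 5. Separate groups were found in 55.4% of all tested genes, with siCEP20 above in 38.4% and below in 17%. Since the members were chosen on this contrast, nothing is read from these counts.

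**Figure D1:**
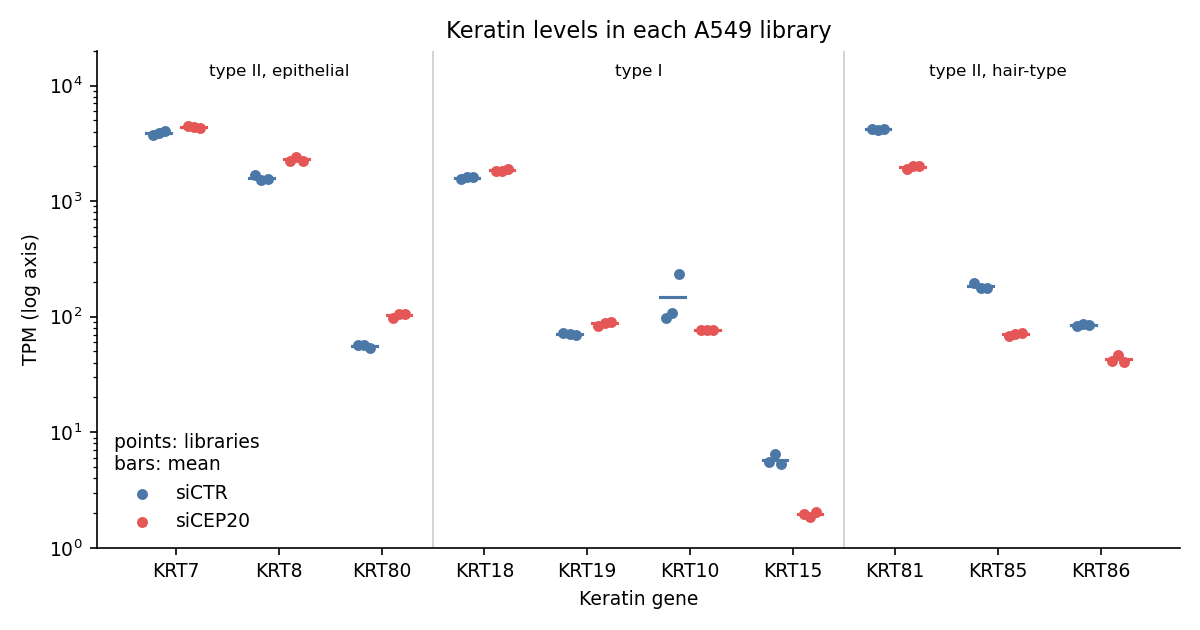
TPM of each of the 10 keratins (log axis) in the 3 siCTR and 3 siCEP20 libraries, with points for libraries and bars for group means. The 3 hair-type keratins and KRT15 sit lower in every siCEP20 library, KRT8 and KRT80 sit higher, and 1 siCTR point of KRT10, at 236 TPM, lies apart from the rest.

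KRT81 (ENSG00000205426, chr12:52285913-52291534, hg38, minus strand) encodes a type II hair keratin. Its level was 4201, 4121 and 4183 TPM in siCTR replicates 1 to 3 and 1897, 2011 and 1994 TPM in siCEP20 replicates 1 to 3. The replicates lay close together and the groups were far apart. The mean went from 4169 ± 42.0 to 1967 ± 61.4 TPM (SD, n = 3 each), which is 47.2% of the control level, with a log2 fold change of -1.08 (SE 0.0426). Among all genes ranked by TPM, KRT81 stood at 18, 21 and 17 in control libraries and at 50, 47 and 52 after CEP20 knockdown. Of all tested genes, 0.893% had a lower log2 fold change.

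KRT85 (ENSG00000135443, chr12:52360006-52367481, minus strand), a type II keratin of the hair matrix and cuticle, was at 196, 178 and 178 TPM in siCTR replicates 1 to 3 and at 68.7, 70.4 and 72.5 TPM in siCEP20 replicates 1 to 3. All siCEP20 values were far under the lowest control value. The mean was 184 ± 10.6 TPM in siCTR and 70.6 ± 1.92 TPM in siCEP20, and the log2 fold change of -1.37 (SE 0.0610) was the lowest of the 10 members. KRT86 (ENSG00000170442, chr12:52249300-52309163, plus strand), a type II keratin of the hair cortex, was at 83.7, 85.7 and 85.1 TPM in siCTR and at 41.5, 46.5 and 40.2 TPM in siCEP20. Its groups were separate as well, with means of 84.9 ± 1.05 and 42.7 ± 3.33 TPM and a log2 fold change of -0.98 (SE 0.0698). Over the 3 hair-type members the log2 fold change ranged from -1.37 to -0.98 with a median of -1.08. Over the 7 other members it ranged from -1.20 to 0.87 with a median of 0.22.

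KRT8 (ENSG00000170421, chr12:52897187-52949954, minus strand), the type II keratin of simple epithelia, was at 1673, 1535 and 1553 TPM in siCTR and at 2246, 2421 and 2210 TPM in siCEP20. Every siCEP20 library was above every control library. The mean was 1.44-fold higher (1587 ± 75.1 against 2292 ± 113 TPM, log2 fold change 0.53, SE 0.0551), so KRT8 stood just outside the fold limit of a call. Its type I partner KRT18 (ENSG00000111057, chr12:52948871-52952906, plus strand) was at 1543, 1610 and 1626 TPM in siCTR and at 1833, 1829 and 1896 TPM in siCEP20. This was a smaller difference, 1.16-fold, with a log2 fold change of 0.22 (SE 0.0436) and groups that did not overlap. The ratio of KRT8 to KRT18 was 0.997 ± 0.0751 in siCTR and 1.24 ± 0.0799 in siCEP20.

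KRT7 (ENSG00000135480, chr12:52232520-52252186, plus strand), a type II keratin of glandular and lung epithelia, was at 3729, 3879 and 4071 TPM in siCTR and at 4506, 4341 and 4252 TPM in siCEP20. The groups were separate by a narrow margin. The log2 fold change was 0.17 (SE 0.0486), or 0.03 above the median of all tested genes. KRT19 (ENSG00000171345, chr17:41523617-41528308, minus strand), the smallest type I keratin, was at 71.5, 71.1 and 69.0 TPM in siCTR and at 83.2, 89.1 and 89.8 TPM in siCEP20, with a log2 fold change of 0.30 (SE 0.0580). KRT80 (ENSG00000167767, chr12:52168996-52192014, minus strand), a type II keratin of many epithelia, was at 57.3, 56.5 and 53.3 TPM in siCTR and at 98.1, 105 and 106 TPM in siCEP20. It was the 1 member called higher, at 1.85-fold and a log2 fold change of 0.87 (SE 0.0611), and all its siCEP20 values lay well above the control range.

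The remaining type I keratins were lower in siCEP20. KRT15 (ENSG00000171346, chr17:41513745-41522529, minus strand), a keratin of basal cells, was the least abundant member, at 5.58, 6.54 and 5.27 TPM in siCTR and 1.96, 1.85 and 2.04 TPM in siCEP20. The groups were separate and the log2 fold change was -1.20 (SE 0.127). KRT10 (ENSG00000186395, chr17:40818117-40822614, minus strand), a keratin of differentiating epidermis, was at 97.3, 107 and 236 TPM in siCTR and at 77.2, 76.0 and 77.3 TPM in siCEP20. Here siCTR replicate 3 stood far above the other 2 control libraries. The log2 fold change of -0.80 had the largest standard error of the members (0.286), KRT10 was not called, and without siCTR replicate 3 the log2 fold change was -0.40.

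In the order of mean levels, the control cells had KRT81 first and KRT7 second, followed by KRT18 (1593 ± 44.1 TPM) and KRT8, which did not differ beyond their spread. KRT85 and KRT10 came next and overlapped each other, then KRT86, KRT19, KRT80 and KRT15. The siCEP20 cells had KRT7 first (4366 ± 129 TPM) and KRT8 second, followed by KRT81, close above KRT18 (1853 ± 37.6 TPM). KRT80, KRT19, KRT10 and KRT85 followed, then KRT86 and KRT15. The ratio of KRT7 to KRT81 went from 0.934 ± 0.0433 to 2.22 ± 0.133.

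The composition of keratin transcripts differed between the groups more than their sum did, which was 0.919 times the control value. All keratin genes together held 1.18 ± 0.0238% of TPM in siCTR and 1.09 ± 0.0126% in siCEP20. The hair-type share of keratin TPM (KRT31 to KRT40 and KRT81 to KRT86 by symbol) was 38.6%, 37.9% and 37.1% in siCTR replicates 1 to 3 and 18.6%, 19.5% and 19.7% in siCEP20 replicates 1 to 3. These shares are far apart and vary little within a group. The share of KRT8 went from 13.4 ± 0.785% to 21.1 ± 0.807%, that of KRT7 from 32.9 ± 0.896% to 40.1 ± 1.14%, and that of KRT18 was 13.2%, 13.8% and 13.4% in siCTR and 16.9%, 16.6% and 17.6% in siCEP20. Summed type I TPM was 1817 ± 111 in siCTR and 2020 ± 40.2 in siCEP20, and summed type II TPM was 10017 ± 138 and 8856 ± 161. Type II transcripts outnumbered type I transcripts 5.52 ± 0.278 to 1 in siCTR and 4.39 ± 0.161 to 1 in siCEP20. With the hair-type genes left out, the ratio was 3.05 ± 0.123 and 3.35 ± 0.148, so the means were in the opposite order. The groups almost touched, at 3.1770 in siCTR replicate 1 and 3.1773 in siCEP20 replicate 3. The lowest control value, 2.93 in siCTR replicate 3, includes the outlying KRT10 value of 236 TPM in its type I sum.

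**Figure D2:**
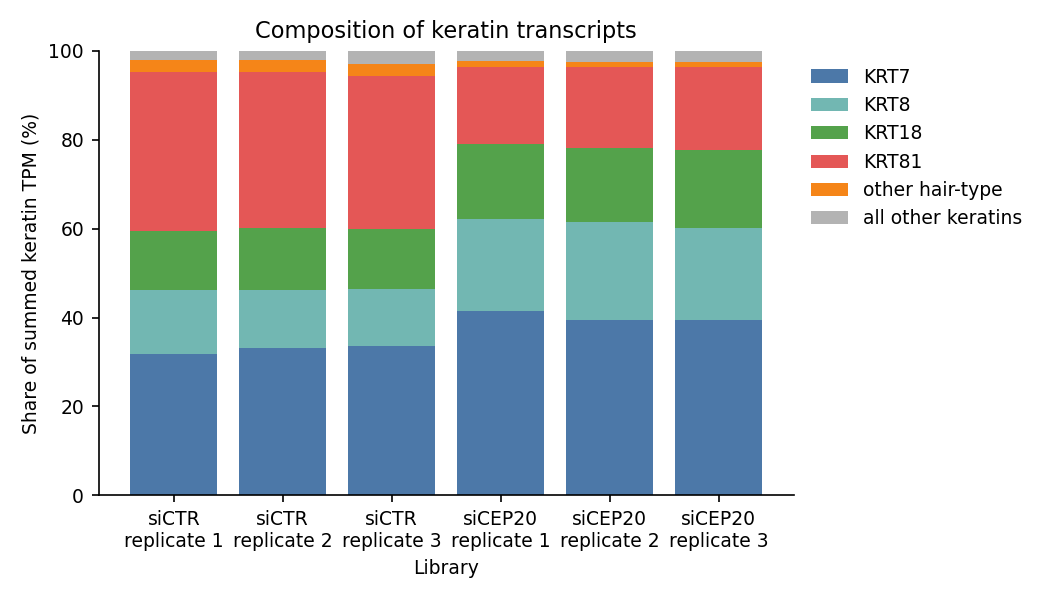
Share of summed keratin TPM (%) held by KRT7, KRT8, KRT18, KRT81, the other hair-type keratins and all other keratins in each library. KRT81 takes 34.5% to 35.9% of the bar in siCTR libraries and 17.5% to 18.5% in siCEP20 libraries.

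The rest of the keratin family was nearly silent. Of 45 keratin genes outside the list, 26 were at 0 TPM in every library and 41 were under 1 TPM in every library. Among these were KRT5 and KRT6A, markers of basal and squamous epithelium, and most of the hair keratins. KRT2 reached at most 1.01 TPM and KRT16 at most 1.03 TPM. The 2 that could be tested were both called lower, where 4.61% of all tested genes were called lower and 11.2% higher. KRT83, a hair keratin whose gene lies between those of KRT81 and KRT85, was at 33.8, 48.3 and 47.6 TPM in siCTR and at 14.7, 13.5 and 14.2 TPM in siCEP20. It fell with a log2 fold change of -1.53 (SE 0.133, limma with Benjamini-Hochberg, adjusted p = 0.000114). KRT222, a keratin-like gene of chromosome 17, fell from 1.91, 1.61 and 1.93 TPM to 0.20, 0.75 and 0.33 TPM, or 23.5% of the control mean (limma, adjusted p = 0.00546). Both sets of values were separate between groups. A protein-coding gene without a symbol that overlaps KRT222 on the same strand, ENSG00000264058, was at 0.345, 2.12 and 0 TPM in siCTR and rose to 3.92, 3.14 and 3.70 TPM in siCEP20 (limma, adjusted p = 0.0131), and how reads were divided between them was not tested. KRT222 reached the filter only through siCTR, with a mean of 1.82 TPM there and 0.427 TPM in siCEP20. Its call and the count of 2 therefore depend on that group, and nothing is read from them. Without siCTR replicate 1 or 3, KRT222 was below the filter and 1 of the 2 tested keratins remained to be called. The summed TPM of the 45 genes was 47.0 ± 8.30 in siCTR and 16.3 ± 0.290 in siCEP20 (two-sided exact permutation test, p = 0.1, the smallest value that 3 against 3 libraries allow). Most of this sum was KRT83, with means of 43.2 TPM in siCTR and 14.1 TPM in siCEP20, so it mainly repeats that gene.

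Of 150 keratin pseudogenes, 97 were at 0 TPM and 146 were under 1 TPM in every library, and 3 could be tested. Of these 3, 1 was called lower and 0 higher, against 4.61% lower and 11.2% higher over all tested genes. KRT87P, a pseudogene of the hair-type cluster that lies on the minus strand at chr12:52250466-52258553, was the most abundant. It fell from 389, 383 and 349 TPM to 142, 143 and 157 TPM (log2 fold change -1.34, SE 0.0647, limma, adjusted p = 2.06e-05). KRT8P3 had a log2 fold change of 0.46 (limma, adjusted p = 0.0174), under the fold limit of a call, and KRT8P12 overlapped between the groups, at 5.43 ± 0.627 and 5.48 ± 1.07 TPM.

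**Figure D3:**
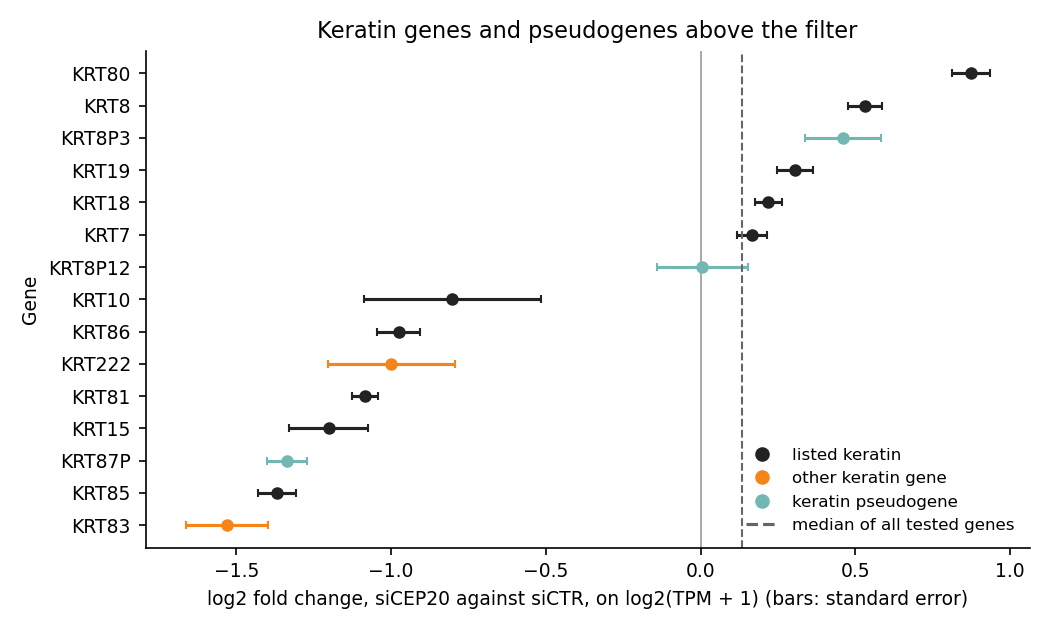
Log2 fold change (siCEP20 against siCTR, on log2(TPM + 1)) with its standard error for the 10 listed keratins, 2 other keratin genes and 3 pseudogenes above the filter. The dashed line is the median of all tested genes, 0.13, and the hair-type genes with KRT87P lie between -1.53 and -0.98.

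The members differ in how far their reads can be told from those of a relative. The coding sequences of KRT81 and KRT86 were 90.9% identical, those of KRT81 and KRT83 89.8%, and those of KRT85 and KRT81 82.4%, against 66.4% for KRT81 and KRT7. Of all windows of 150 bases in the KRT81 transcript, 25.6% occurred unchanged in KRT86, and 21.7% of those in KRT86 occurred in KRT81. KRT83, KRT85 and KRT87P had no such window in another gene. At 50 bases the share with a copy in any other gene was 44.6% for KRT81, 44.8% for KRT86, 25.4% for KRT87P, 12.8% for KRT83 and 8.92% for KRT85. It was 52.8% for KRT18 and 39.2% for KRT8, and KRT8P3 was the gene that held most of the KRT8 windows. KRT86 is uncertain as a separate measurement because of the windows it shares with KRT81, and how reads were divided between them was not tested. Its level was 2.04 ± 0.0442% of KRT81 in siCTR and 2.17 ± 0.150% in siCEP20, with overlapping groups. KRT85 was at 4.41 ± 0.227% of KRT81 in siCTR and at 3.59 ± 0.0733% in siCEP20, with separate groups. KRT83 was at 1.04 ± 0.203% and 0.720 ± 0.0513%, also separate.

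Overlapping genes touch some other members. The exons of KRT8 and KRT18 overlap on opposite strands over 525 bases, and 12.3% of the windows of 150 bases in KRT18 occurred in KRT8. KRT7 shares 5.22% of such windows with KRT7-AS, which was at 24.7, 23.8 and 24.2 TPM in siCTR and at 26.3, 26.3 and 31.4 TPM in siCEP20. KRT10 overlaps the antisense gene KRT10-AS1 over 61 exon bases, and that gene was at 22.2 ± 2.90 and 25.7 ± 3.41 TPM. The library protocol of the methods keeps strand, but whether the quantification used it is not given in the sources used here. LINC00592, which spans KRT80 on the other strand, was at 0.996 ± 0.0677 TPM in siCTR and 1.71 ± 0.305 TPM in siCEP20.

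On chromosome 12 the lower genes stood together. The annotated span of KRT86 on the plus strand contains KRT87P and KRT81, both on the minus strand, and KRT83 and KRT85 lie beyond its end. Together these genes cover 118 kb in which no other tested gene starts, and each had a log2 fold change of -0.98 or less. KRT7, whose start lies 59.0 kb from that of KRT81 and whose annotated end runs past the start of KRT86, had a log2 fold change of 0.17. KRT80 lies 99.5 kb from KRT81 on the same side and had the value 0.87. Among 18 tested genes that are not keratins within 1 Mb of the KRT81 start, 1 was called higher and 0 were called lower by limma. This stood against 11.2% higher and 4.61% lower over all tested genes, and the median log2 fold change of the 18 was 0.07. The gene called higher was NR4A1, an early response nuclear receptor gene, which is named because it was the single call (log2 fold change 1.17, limma, adjusted p = 3.12e-05).

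**Figure D4:**
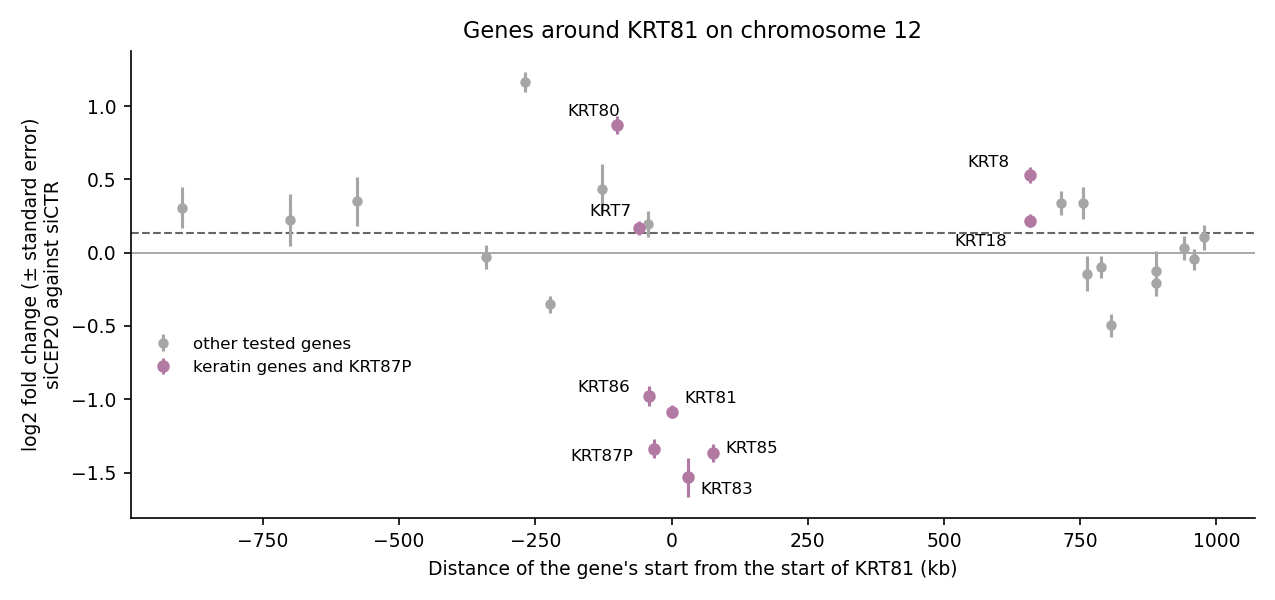
Log2 fold change with its standard error against the distance (kb) between each tested gene's start and that of KRT81 on chromosome 12. The purple points at -1.53 to -0.98 are 4 hair-type keratins and KRT87P, and the grey points of other genes lie on both sides of the dashed line, the median of all tested genes.

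Hair-type keratins were expressed without most of the other genes of hair-forming cells. Of 22 hair markers that are not members, 10 were at 0 TPM in every library and 16 were under 1 TPM in every library. The type I hair keratins KRT31, KRT32, KRT35 and KRT36, the usual partners of KRT81, KRT85 and KRT86, were among those at 0. Of 5 tested hair markers, KRT83 was the 1 called, and it was lower. Over all tested genes, 4.61% were called lower and 11.2% higher. HOXC13, a transcription factor of hair keratin genes, was at 5.97, 6.12 and 5.70 TPM in siCTR and at 6.35, 6.12 and 6.06 TPM in siCEP20, with overlapping groups (log2 fold change 0.05, limma, adjusted p = 0.698). S100A3, a calcium-binding protein of the hair cuticle named here after its values were seen, was at 156 ± 10.9 and 156 ± 3.73 TPM.

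Genes that tie keratin filaments to desmosomes and hemidesmosomes were called higher in 5 of 16 tested, out of 19 listed, and lower in 0 (limma). Over all tested genes, 11.2% were called higher and 4.61% lower. With no limit on the fold, an adjusted p-value under 0.05 was reached by 11 higher genes and 1 lower gene of the list, against 30.2% higher and 13.2% lower over all tested genes, and the list median was 0.45, against 0.13 for all tested genes. JUP, plakoglobin, rose from 252, 261 and 298 TPM to 470, 490 and 507 TPM (log2 fold change 0.86, limma, adjusted p = 9.19e-05). DSP, desmoplakin, which binds keratins to the desmosome, rose from 28.3, 31.7 and 32.7 TPM to 52.8, 54.5 and 51.6 TPM (log2 fold change 0.76, limma, adjusted p = 0.000187). The desmosomal cadherin DSG2 rose from 37.7 ± 3.28 to 62.0 ± 1.96 TPM and the linker PPL, periplakin, from 3.53 ± 0.481 to 6.91 ± 0.548 TPM. The fifth gene was DSC3, at 1.72 ± 0.313 and 3.17 ± 0.170 TPM. In each of these 5 genes, which are desmosomal genes and a linker, all siCEP20 libraries were above all siCTR libraries. The hemidesmosome genes of the list were not called, with log2 fold changes of 0.07 for PLEC, 0.40 for ITGA6, 0.34 for ITGB4, 0.53 for DST and -0.22 for CD151, the 1 lower gene, and they are named after their values were seen. With the libraries scaled by the median of ratios, 3 of the list were called higher.

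Among 18 genes of other intermediate filaments, 13 were tested, 2 were called higher and 1 lower. The shares over all tested genes were 11.2% higher and 4.61% lower. The median log2 fold change was -0.07 for the list, against 0.13 for all tested genes. SYNC, syncoilin, rose from 4.80 ± 0.319 to 10.1 ± 0.511 TPM (log2 fold change 0.94, limma, adjusted p = 0.000256). The second was NES, nestin, at 0.905 ± 0.0920 and 1.87 ± 0.232 TPM, and the gene called lower was GFAP, at 3.01 ± 0.675 and 1.39 ± 0.780 TPM. These 2 are named because they complete the count, and both are low in all libraries. The count called lower was 0 without siCEP20 replicate 1, siCEP20 replicate 2 or siCTR replicate 2, and the count called higher was 1 without siCEP20 replicate 2, siCTR replicate 1 or siCTR replicate 3. The result for GFAP was weaker in 5 alternative fits, and that for PRPH, another gene of the list, was stronger in 1 (log2 fold change -0.76). The gene counted as lower thus need not be GFAP in each fit. VIM, vimentin, the filament of mesenchymal cells, was at 987, 1124 and 1084 TPM in siCTR and at 1386, 1437 and 1478 TPM in siCEP20. Its groups were separate and its log2 fold change of 0.43 (limma, adjusted p = 0.000830) was under the fold limit of a call. INA, an internexin, had a log2 fold change of 0.49 (limma, adjusted p = 0.000968), and LMNB2, a nuclear lamin, one of -0.35 (limma, adjusted p = 0.00185).

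Of 23 genes that regulate or bind keratins, all were tested, and 2 were called higher and 0 lower. Among all tested genes, 11.2% were called higher and 4.61% lower. The list median was 0.09 on the log2 scale, against 0.13 for all tested genes. HSPB1, a small heat shock protein that associates with keratin filaments, rose from 639, 710 and 794 TPM to 1154, 1183 and 1189 TPM (log2 fold change 0.72, limma, adjusted p = 0.000245). The other was PIAS1, a SUMO ligase, at 9.20 ± 1.03 and 15.2 ± 0.521 TPM. The 14-3-3 genes did not move together. YWHAE and SFN had log2 fold changes of 0.46 and 0.43, YWHAZ one of -0.48, all at an adjusted p-value under 0.05 (limma) and under the fold limit of a call. With the libraries scaled by the median of ratios, 0 genes of the list were called higher and 1 lower.

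Transcription factors known to act on keratin genes were called higher in 9 of 20 tested and lower in 1, out of 29 listed. The list median was 0.49 on the log2 scale. Over all tested genes, 11.2% were called higher and 4.61% lower, with a median of 0.13. JUN, a component of AP-1, rose from 57.8, 60.4 and 59.9 TPM to 118, 129 and 135 TPM (log2 fold change 1.09, limma, adjusted p = 3.53e-05). RARA, a retinoic acid receptor, rose from 28.3 ± 1.78 to 57.2 ± 2.39 TPM, and AHR, the aryl hydrocarbon receptor, from 18.3 ± 2.44 to 38.2 ± 0.663 TPM. ELF3, an epithelial ETS factor, rose from 88.8 ± 4.85 to 142 ± 6.37 TPM (log2 fold change 0.68, limma, adjusted p = 0.000161). The gene called lower was CEBPA, at 12.3 ± 1.13 and 7.67 ± 0.158 TPM, which fell by 0.61 on the log2 scale (limma, adjusted p = 0.00158). With the libraries scaled by the median of ratios, 2 factors were called lower, and without siCTR replicate 1 the count was 0.

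**Figure D5:**
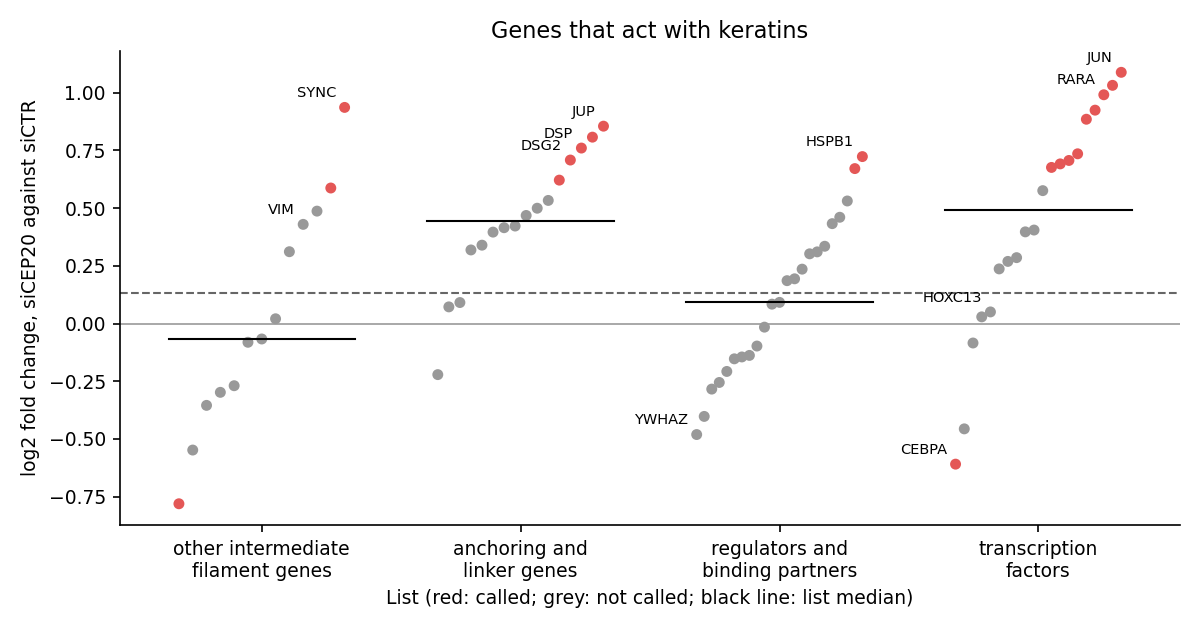
Log2 fold change (siCEP20 against siCTR) of every tested gene in 4 lists that act with keratins, with called genes in red, other genes in grey, the list median as a black line and the median of all tested genes, 0.13, as a dashed line. The anchoring list (median 0.45) and the transcription factors (median 0.49) lie mostly above the dashed line, and the other lists (medians -0.07 and 0.09) spread around it.

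Markers of cell types were set beside the keratins, and over all tested genes 11.2% were called higher and 4.61% lower. Epithelial markers other than keratins were called higher in 4 of 6 tested genes (CDH1, ELF3, MUC1 and EPCAM), out of 9 listed. CLDN4 went the other way, at 2.70 TPM in siCTR and 1.98 TPM in siCEP20, and CLDN7 was at 1.85 and 2.83 TPM. Neither was called. The summed TPM of the list was 103 to 112 in siCTR and 175 to 191 in siCEP20. Most of it was ELF3, at 88.8 and 142 TPM, which is also in the transcription factor list. EPCAM was low, at 1.04 TPM in siCTR and 3.38 TPM in siCEP20. The alveolar type II markers SFTPA1 and SFTPA2 were at 0 in every library and the list's sum was 21.8 to 23.8 TPM in siCTR and 22.4 to 23.9 TPM in siCEP20, with 1 of 3 tested genes called lower (LAMP3), out of 9 listed. Most of the sum was ABCA3, which was higher in siCEP20 with separate groups (17.4 and 20.5 TPM) but not called. LAMP3 was at 3.02 and 1.25 TPM, and NAPSA, with overlapping groups, at 1.92 and 1.06 TPM, so the sum holds genes that went opposite ways. Of 12 basal and squamous markers, 8 were at 0, both tested genes (TP63 and DSC3) were called higher, and the sum was 2.60 to 3.44 TPM in siCTR and 6.24 to 6.84 TPM in siCEP20. Of 8 fibroblast markers, COL1A2 and DCN were at 0, both tested genes (COL1A1 and THY1) were called higher, and the sum was 12.5 to 15.3 TPM in siCTR and 31.3 to 35.4 TPM in siCEP20. The 6 endothelial markers summed to at most 0.160 TPM. Among immune markers, PTPRC averaged 0.00610 TPM in siCTR and was at 0 in siCEP20, and CD68 was called higher, at 18.9 TPM in siCTR and 33.8 TPM in siCEP20 (limma, adjusted p = 0.0161). These marker sums moved with the groups in the same libraries as the keratins, except the alveolar sum, whose groups overlapped, and the hair marker sum (199 to 229 TPM in siCTR, 179 to 186 TPM in siCEP20), which was lower. The hair marker sum includes KRT83, which went from 43.2 to 14.1 TPM, while S100A3, its largest part, averaged 156 TPM in both groups. Their part in the keratin values was not tested.

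The 3 protein-coding genes whose log2(TPM + 1) followed KRT81 most closely over the 6 libraries were AKR1B1 (Pearson r = 0.999), an aldose reductase that went from 9898 ± 79.7 to 5100 ± 162 TPM, LDHB, a lactate dehydrogenase subunit (1346 ± 27.4 to 869 ± 16.8 TPM), and PHPT1, a phosphohistidine phosphatase (478 ± 11.4 to 250.2 ± 5.52 TPM). The 6 points fall into the 2 groups, so this likeness describes mainly the difference between them. Of 12269 genes compared, 152 had r above 0.99 and 166 had r below -0.99.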

How the data were processed

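RNA-seq of A549 cells was available for 3 siCTR and 3 siCEP20 libraries. The authors trimmed reads with fastp 0.20.1, aligned them to hg38 with HISAT2 2.1.0 and quantified genes with StringTie 2.0, and the deposited table holds TPM for each Ensembl gene (tools and build from the submitters' processing notes). The annotation release and strand setting of the quantification are not given in the sources used here. TPM holds no counts, so depth is unknown, no counting interval was computed, and precision rests on 3 libraries per group.

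All columns were mapped by name. Symbols, positions and transcripts came from GENCODE release 44, and 254 of 60624 IDs had no symbol there. Genes whose mean TPM reached 1 were fitted on log2(TPM + 1) by limma 3.58.1 under R 4.3.3, using lmFit and a trended eBayes without rescaling or covariate, with Benjamini-Hochberg adjustment over all tested genes. The thresholds are those of the study, whose own test needs read counts. The fit was tested on simulated data. The 10 keratins and all lists were chosen with earlier results of these data known, and the list medians and counts are set beside those of all tested genes with no test of a list. Genes named in the text were the members, CEP20, other keratins and pseudogenes above the filter or reaching it in 1 library, the 4 genes of each list with the smallest adjusted p plus VIM, the 3 genes most like KRT81 and genes overlapping a member, and others are said to be named after their values were seen or to complete a count. Shared windows were counted in 1 transcript per gene against all transcripts of genes in the table, and coding identity was computed with edlib 1.3.9.post1. Promoter windows came from RefSeq (GRCh38.p14). The immune marker list is not reported in full here. Python 3.11.15, pandas 2.3.3, numpy 2.4.6, scipy 1.17.1 and matplotlib 3.10.9 were used.

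Alternatives tried were the replicate number as a block, quantile normalization or median-of-ratios scaling of the libraries, a pseudocount of 0.1, a mean of 5 TPM or no minimum, an untrended eBayes, a fold limit of 2, pseudogenes added to keratin sums, and each library left out in turn.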

Additional observations from a re-analysis of the deposited data

How the results depend on the processing

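The keratins of the list kept their direction under every alternative run (5 above 0 and 5 below, also with any library left out), except that KRT15 was not fitted at a mean of at least 5 TPM. KRT10 moved from -0.80 to -0.40 without siCTR replicate 3 and KRT15 from -1.20 to -1.52 with a pseudocount of 0.1. KRT7 was at 0.01 after median-of-ratios scaling and 0.44 after quantile normalization, and KRT81 at -1.23 and -0.88. KRT83 ranged from -1.69 to -1.44 and was called lower in each fit. Median-of-ratios scaling gave 894 genes called higher and 1103 lower over all genes, against 1659 and 682, and within the lists 1 higher for other intermediate filaments, 3 higher for anchoring and linker genes, 0 higher and 1 lower for regulators and 2 lower for transcription factors. Quantile normalization gave 923 higher over all genes, 1 higher for regulators, and a change of the hair-type share of -19.4 percentage points, against -18.6. With pseudogenes added, that change was -17.7 and the summed TPM of the other keratins changed by -255.6 in place of -30.7. A mean of at least 5 TPM left 1 other keratin called lower and 1 other intermediate filament gene higher and 0 lower, since genes under that mean are not tested. Without a filter, 0 other intermediate filament genes were called lower, and the cause was not tested. A fold limit of 2 gave 261 genes higher and 147 lower over all genes, 1 other keratin lower, 0 other intermediate filament genes in either direction, 0 anchoring genes and 0 regulators higher, and 2 transcription factors higher and 0 lower.

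With each library left out in turn, genes called higher ranged from 1381 to 1905 and lower from 613 to 706. Calls ranged from 1 to 2 lower for other keratins, 1 to 2 higher and 0 to 1 lower for other intermediate filaments, 4 to 6 higher for anchoring genes, 2 to 3 higher for regulators, and 9 to 10 higher and 0 to 1 lower for transcription factors. The change of the hair-type share ranged from -19.0 to -18.2 points, that of the type II to type I ratio from -1.28 to -0.997, and that of the summed other keratins from -35.5 to -28.1 TPM. The libraries share only a number: deviations of same-numbered libraries had correlations of 0.157, -0.0614 and -0.0623. With the replicate number as a block, 1654 genes were called higher and 694 lower, 2 other keratins lower, and no list or keratin count changed. In TPM, with 3 libraries per group, small differences of low genes such as KRT222 limit what can be said.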
